A study of Homo sapiens with 6 samples.

Results

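Hyaluronan is a long, unbranched sugar polymer of the extracellular matrix, and 9 genes of its synthesis, binding and breakdown were followed in U251, a long-established glioblastoma line of human origin. The genes were the hyaluronan synthases HAS1, HAS2 and HAS3, the hyaluronan-binding protein TNFAIP6, the receptors CD44 and HMMR, and the hyaluronidases HYAL1, HYAL2 and HYAL3. They were found by gene symbol, and all 9 were present among the 58735 genes of the expression table. RNA-seq had been performed on 3 control cultures that received sterile deionized water (NC group) and 3 cultures that received 10 ng/mL recombinant human tumor necrosis factor-α (TNF-α group), both for 24 h and described as independent biological replicates. All 6 libraries came from the same line under the same culture conditions and were made from poly(A)-selected RNA, so that each value is an average over many cells, and fewer cells expressing a gene cannot be told apart from less RNA per cell. The comparison asked how the transcripts of the hyaluronan system differed between the groups.

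Hyaluronan is made at the plasma membrane by the HAS enzymes, which join UDP-glucuronic acid and UDP-N-acetylglucosamine and push the growing chain out of the cell. The chain is bound at the surface by CD44, is cross-linked by proteins such as TNFAIP6 (also called TSG-6) and pentraxin 3, and is cut by hyaluronidases. Brain matrix is rich in hyaluronan, and CD44 is a widely used marker of the mesenchymal state of glioblastoma. TNF-α is an inflammatory cytokine that signals to the transcription factors NF-kB and AP-1.

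Positions are those of GENCODE 29 on the GRCh38 assembly. The synthases lay on separate chromosomes, with HAS1 (ENSG00000105509) on chromosome 19 at 51713112 to 51723994 on the minus strand, HAS2 (ENSG00000170961) on chromosome 8 at 121612116 to 121641390 on the minus strand, and HAS3 (ENSG00000103044) on chromosome 16 at 69105564 to 69118719 on the plus strand. TNFAIP6 (ENSG00000123610) lay on chromosome 2 at 151357592 to 151380048, CD44 (ENSG00000026508) on chromosome 11 at 35138870 to 35232402, and HMMR (ENSG00000072571) on chromosome 5 at 163460203 to 163491945, all on the plus strand. The hyaluronidase genes formed a cluster on the minus strand of chromosome 3, with HYAL3 (ENSG00000186792) at 50292831 to 50299468, HYAL1 (ENSG00000114378) at 50299889 to 50312381 and HYAL2 (ENSG00000068001) at 50317790 to 50322906. The merged exons ran from 1579 bases for TNFAIP6 to 10004 bases for CD44. TNFAIP6, HMMR and HAS2 had a low GC content (36.7% to 36.9%), and HYAL3, HYAL2 and HAS1 a high one (60.9% to 65.3%).

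Depth was similar in all libraries, with 31992167 to 37897044 reads in genes, and 6 of 6 known response genes of TNF-α and NF-kB (NFKBIA, TNFAIP3, ICAM1, RELB, BIRC3 and CCL2) rose in the TNF-α group, with a median log2 fold change of 3.14. TNF-α replicates 2 and 3 stood apart from the other 4 libraries. The share of reads in genes longer than 8 kb was 16.6% and 17.9% there and 28.8% to 29.1% elsewhere, and ribosomal protein genes held 8.11% and 6.96% there and 2.90% to 3.22% elsewhere. Among the 2369 tested genes longer than 8 kb the median log2 ratio to the NC mean was 0.00, -0.56 and -0.52 in TNF-α replicates 1 to 3. For this reason the results for the tested hyaluronan genes are also given with replicate 1 alone and after a correction for GC content and gene length. Levels are given as FPKM, fragments per kilobase of exon divided by a scaled library total, which allows genes to be compared per length. This total was 0.693 and 0.759 times the reads in genes in TNF-α replicates 2 and 3 and 0.925 to 0.959 times in the other libraries, so that every FPKM of those replicates was higher relative to its reads. Of 10 astrocyte and glioblastoma markers, 4 never reached an FPKM of 1, among them AQP4 at 0 in every library. GFAP, VIM, NES, SOX2, SOX9 and SLC1A3 exceeded 1 in every library. GFAP had a log2 fold change of -1.54 (adjusted p = 0.0210 by limma), VIM of 1.05 and SOX2 of -0.84 (adjusted p = 0.195 for both). The 10 markers summed to an FPKM of 487 to 536 in the NC group and 597 to 1098 in the TNF-α group, of which VIM was 325 to 362 and 434 to 974. The macrophage marker PTPRC was at 0 in every library, 5 of the 6 macrophage and microglia markers never reached 1, and the 6 summed to 0.869 to 1.21 in the NC group and 0.654 to 1.75 in the TNF-α group. Endothelial markers (5 genes) summed to 6.27 to 6.80 and 2.17 to 6.03, nearly all of it KDR, and epithelial markers (4 genes) to 11.7 to 14.0 and 9.18 to 34.0, nearly all of it KRT18. The part of these markers in the results was not tested.

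RefSeq promoter windows on GRCh38.p14, 250 bases before to 50 bases after an annotated start, were matched for 8 of the 9 genes. HAS2 was the gene with no match. The windows were searched on both strands for the NF-kB consensus, for the AP-1 motif TGANTCA and for the TATA box TATAAA, which were present in 5.91%, 7.71% and 11.5% of all 35116 windows. TNFAIP6 held an AP-1 match from base -129, counted back from the start, and 1 of the HYAL3 windows held an NF-kB match from base -51. No match to any of these motifs was present in the windows of HAS1, HAS3, CD44, HMMR, HYAL1 or HYAL2. The windows of HAS3 (69107290 to 69107589), CD44, HMMR and HYAL1 (50303525 to 50303824) lay inside the gene spans given above. The bases before the outermost starts of these genes were therefore not searched. The HYAL3 window with the match (50298811 to 50299110) also lay inside the HYAL3 span. The other HYAL3 window (50299356 to 50299655) reached past the outermost start and held no match. A match describes the letters and shows neither binding nor a cause. The 250 upstream bases of the windows with a match are shown, 5′ to 3′ on the gene's strand and with the matches in capitals, for both of these genes and for GFPT2 and PTX3, a precursor enzyme and a matrix protein that rose with TNF-α. They are chr2:151357342-151357591 (TNFAIP6, plus strand), chr3:50298861-50299110 (HYAL3, minus strand), chr5:180353337-180353586 (GFPT2, minus strand) and chr3:157436600-157436849 (PTX3, plus strand).
TNFAIP6: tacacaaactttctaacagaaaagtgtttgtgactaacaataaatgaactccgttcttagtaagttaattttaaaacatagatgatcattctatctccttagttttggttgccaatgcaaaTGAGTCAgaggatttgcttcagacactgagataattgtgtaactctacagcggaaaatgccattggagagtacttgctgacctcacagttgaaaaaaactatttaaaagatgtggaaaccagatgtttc
HYAL3: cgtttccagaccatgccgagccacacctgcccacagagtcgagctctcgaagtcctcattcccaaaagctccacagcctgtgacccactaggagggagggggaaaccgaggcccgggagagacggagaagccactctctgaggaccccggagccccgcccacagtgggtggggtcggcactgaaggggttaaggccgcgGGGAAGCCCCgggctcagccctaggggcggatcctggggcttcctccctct
GFPT2: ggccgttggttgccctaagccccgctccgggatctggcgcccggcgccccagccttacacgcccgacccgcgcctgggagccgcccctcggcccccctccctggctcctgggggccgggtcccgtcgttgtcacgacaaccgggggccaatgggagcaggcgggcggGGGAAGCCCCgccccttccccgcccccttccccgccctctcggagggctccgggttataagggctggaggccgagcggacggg
PTX3: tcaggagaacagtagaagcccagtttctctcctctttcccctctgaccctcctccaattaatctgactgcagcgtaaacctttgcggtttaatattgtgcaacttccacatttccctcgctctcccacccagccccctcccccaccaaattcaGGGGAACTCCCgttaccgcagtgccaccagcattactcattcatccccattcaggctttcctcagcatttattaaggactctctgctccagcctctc
The GFPT2 window held an NF-kB match from base -83, and the PTX3 window held 2 overlapping matches from bases -97 and -96, read on opposite strands. LAYN, a receptor that also rose with TNF-α, had no matched window and was not searched. GFPT2 and PTX3 were picked because they rose, so that their matches support no statement about genes that rose.

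Among the synthases, HAS2 was higher and HAS3 was lower in every TNF-α library than in any NC library, and the sum of the synthase transcripts overlapped between the groups. All levels are FPKM. HAS2, the synthase best known for induction in stressed and wounded tissue, was at 0.575, 0.437 and 0.609 in NC replicates 1 to 3 and at 2.38, 1.33 and 1.67 in TNF-α replicates 1 to 3. The means were 0.540 ± 0.0913 and 1.79 ± 0.540 (SD, n = 3), a ratio of 3.32, and replicate 1 alone was at 4.41 times the NC mean. These values rest on 60 to 87 reads per NC library and 144 to 321 reads per TNF-α library. On the log2(FPKM + 1) scale, on which all fold changes are given and which understates those of low genes, the difference was 0.84 ± 0.17 (SE), with a 95% interval of 0.43 to 1.25. The adjusted p was 0.106 by limma, so that HAS2 missed the threshold of 0.05, and it had entered the test only through its TNF-α values, since all NC values lay under the minimum FPKM of 1.

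**Figure D1:**
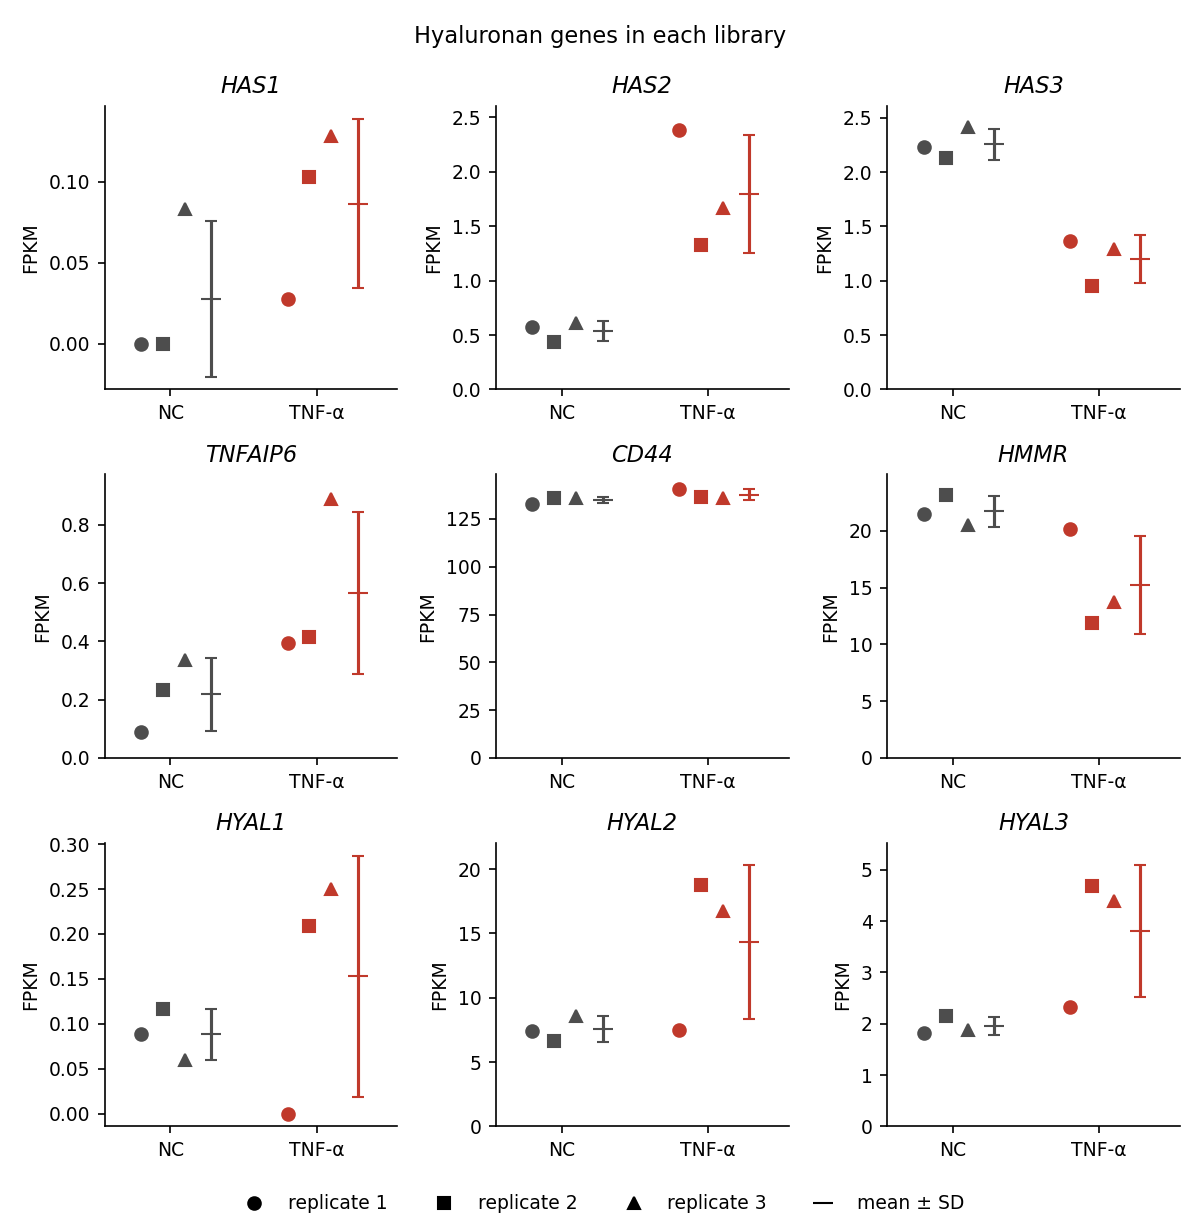
FPKM of the 9 hyaluronan genes in each library, by group (NC in grey, TNF-α in red), with 1 marker shape per replicate and the group mean ± SD (n = 3) beside the points. Each panel has its own linear axis. HAS2 and TNFAIP6 are higher and HAS3 lower in all 3 TNF-α libraries, while HMMR, HYAL2 and HYAL3 depart from the NC level mainly in TNF-α replicates 2 and 3.

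HAS3, which makes hyaluronan of shorter chains than HAS2, was the main synthase transcript of the control cells. It was at 2.23, 2.13 and 2.41 in NC replicates 1 to 3 and at 1.37, 0.948 and 1.29 in TNF-α replicates 1 to 3. The means were 2.26 ± 0.145 and 1.20 ± 0.223 (SD, n = 3), so that the NC level was 1.88 times the TNF-α level, with 369 to 426 reads per NC library and 130 to 232 per TNF-α library. The log2 fold change was -0.57 ± 0.13 (SE), its 95% interval ran from -0.88 to -0.26 and its adjusted p was 0.143 by limma. HAS1, the least expressed synthase, gave 0, 0 and 6 reads across the NC libraries and 2, 6 and 7 across the TNF-α libraries, which is at most an FPKM of 0.129. Its groups overlapped and no difference was detectable at this depth.

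The shares of HAS2 and HAS3 in the synthase transcripts did not overlap between the groups, whereas the total did. HAS2 made up 20.5%, 17.0% and 19.6% of the summed synthase FPKM in NC replicates 1 to 3, against 63.1%, 55.8% and 54.0% in TNF-α replicates 1 to 3, with means of 19.0% ± 1.80 and 57.6% ± 4.82 (SD, n = 3). HAS3 made up 77.7% to 83.0% of the sum in the NC group and 36.1% to 41.8% in the TNF-α group. HAS3 was therefore the leading synthase transcript in the 3 NC libraries and HAS2 in the 3 TNF-α libraries. The ratio of HAS2 to HAS3 stood at 0.258, 0.205 and 0.252 across the NC libraries and 1.75, 1.40 and 1.29 across the TNF-α libraries. Its mean was 0.239 ± 0.0289 in the NC group and 1.48 ± 0.237 in the TNF-α group, a 6.20-fold difference. The exact two-sided permutation p was 0.1, the smallest that 3 against 3 libraries can give. This p was fixed in advance, since HAS2 was higher and HAS3 lower in every TNF-α library than in any NC library. It therefore adds nothing to the separate values of these genes. Such a ratio within a library does not depend on the library's scaling, although the genes differ in GC content (36.9% for HAS2 and 52.7% for HAS3). The summed FPKM was 2.80, 2.56 and 3.11 across the NC libraries and 3.78, 2.38 and 3.09 across the TNF-α libraries, and its means of 2.82 ± 0.272 and 3.08 ± 0.70 had an exact permutation p of 0.7.

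**Figure D2:**
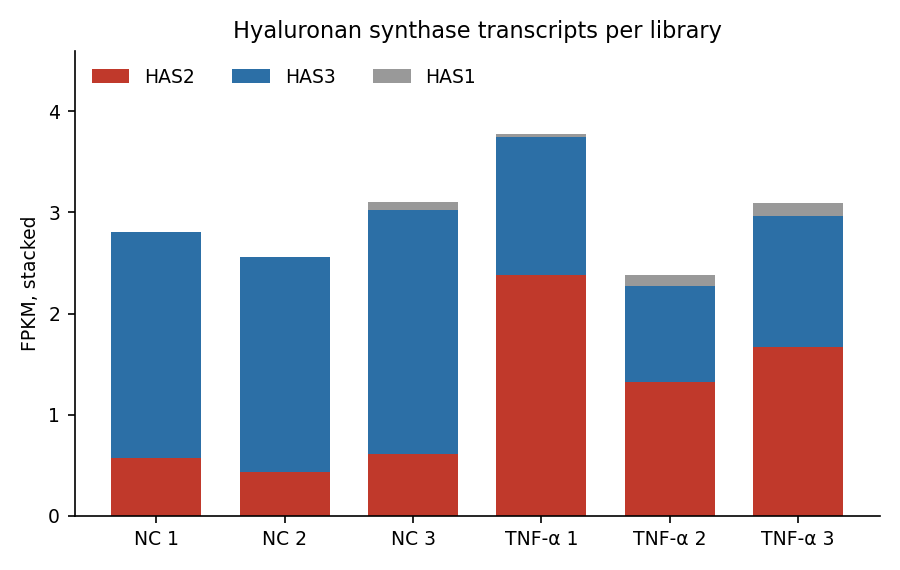
Stacked FPKM of the synthase transcripts in each library, with HAS2 in red at the base, HAS3 in blue and HAS1 in grey, on a linear axis from 0. The total bar heights overlap between the groups (2.56 to 3.11 in NC and 2.38 to 3.78 in TNF-α), and the HAS2 part makes up 17.0% to 20.5% of the bar in NC and 54.0% to 63.1% in TNF-α.

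TNFAIP6, which encodes a secreted protein that transfers heavy chains onto hyaluronan and is named for its induction by TNF-α, was close to the lower limit of detection. The NC replicates 1 to 3 had an FPKM of 0.0876, 0.232 and 0.335, and the TNF-α replicates 1 to 3 had 0.394, 0.415 and 0.887, all TNF-α values lying above all NC values. These values correspond to 5, 12 and 17 reads and to 20, 17 and 34 reads, or 34 in the NC group and 71 in the TNF-α group, and 3 reads correspond to an FPKM of 0.0526 to 0.0782. The means were 0.218 ± 0.124 and 0.565 ± 0.278 (SD, n = 3), and the exact two-sided permutation p of the log2 values was 0.1, again the smallest possible. TNFAIP6 did not reach the minimum FPKM. In a limma fit without the filter, in which 0.183% of the genes passed the threshold, its log2 fold change of 0.35 ± 0.16 (SE) had an adjusted p of 0.356.

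CD44, the main cell-surface receptor for hyaluronan, was the most abundant of these transcripts per length, with group means that differed by 2.07% in the values as deposited. It was at 133, 136 and 136 in NC replicates 1 to 3 and at 141, 136 and 136 in TNF-α replicates 1 to 3. Its NC mean of 135 ± 1.69 lay above 98.1% of all tested genes, and the TNF-α mean of 138 ± 2.73 was slightly higher (SD, n = 3). The log2 fold change was 0.03 ± 0.14 (SE), its 95% interval ran from -0.31 to 0.37 and its adjusted p was 0.877 by limma. The sign of this small difference depended on the scaling. It was -0.47 after conversion to TPM, where the median over all tested genes was -0.42, and -0.24 in limma-voom on the recovered reads, where that median was -0.21, while quantile normalization gave -0.54. CD44 is also 1 of the genes longer than 8 kb, whose share of reads in TNF-α replicates 2 and 3 was low. After the correction for GC content and gene length, the CD44 log2 ratios were 0.06, 0.57 and 0.55 in the TNF-α group, with a fold change of 0.39 and an adjusted p of 0.177. The values are sums over all exons and do not separate the splice forms of CD44.

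HMMR, also called RHAMM, binds hyaluronan outside the cell and microtubules at the mitotic spindle inside it. It had an FPKM of 21.5, 23.2 and 20.5 in NC replicates 1 to 3, against 20.1, 11.9 and 13.7 in TNF-α replicates 1 to 3. TNF-α replicate 1 lay just under the lowest NC library, and the NC mean was 1.70 times the mean of replicates 2 and 3. The group means were 21.7 ± 1.36 and 15.2 ± 4.34 (SD, n = 3), with a log2 fold change of -0.52 ± 0.21 (SE) and an adjusted p of 0.195 by limma. The ratio of CD44 to HMMR was 6.18, 5.87 and 6.63 across the NC libraries and 7.0, 11.5 and 9.91 across the TNF-α libraries.

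The hyaluronidase transcripts HYAL2 and HYAL3 were higher mainly in TNF-α replicates 2 and 3. HYAL2, a surface-anchored enzyme that cuts long hyaluronan into fragments, was at 7.43, 6.66 and 8.62 in NC replicates 1 to 3 and at 7.52, 18.7 and 16.7 in TNF-α replicates 1 to 3. Its groups overlapped, because TNF-α replicate 1 lay within the NC range. The means were 7.57 ± 0.984 and 14.3 ± 5.98 (SD, n = 3), with a log2 fold change of 0.75 ± 0.33 (SE) and an adjusted p of 0.195. HYAL3, a related protein whose enzyme activity is less well established, was at 1.83, 2.15 and 1.89 across the NC libraries and at 2.33, 4.69 and 4.40 across the TNF-α libraries. Its means were 1.95 ± 0.171 and 3.81 ± 1.29, with a log2 fold change of 0.67 ± 0.23 (SE) and an adjusted p of 0.195. HYAL1, the lysosomal hyaluronidase, had 10, 12 and 6 reads across the NC libraries and 0, 17 and 19 across the TNF-α libraries, so that 0 of its reads fell in the library that had the NC level of HYAL2. HYAL2 made up 74.6% to 81.6% of the summed hyaluronidase FPKM in the NC group and 76.3% to 79.2% in the TNF-α group. The sum was 9.35, 8.93 and 10.6 across the NC libraries and 9.85, 23.6 and 21.4 across the TNF-α libraries.

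Genes beside the hyaluronidases had fold changes of similar size. TUSC2 overlaps 11.2% of the exon bases of HYAL2 on the same strand, and IFRD2 and NAA80 together overlap 14.3% of those of HYAL3, also on the same strand, so that reads in these stretches cannot be told apart. The log2 fold changes of TUSC2, IFRD2, NAA80 and the neighbouring RASSF1 ran from 0.63 to 0.76, with adjusted p from 0.188 to 0.196. After the GC and length correction they ran from 0.01 to 0.17. The other overlaps lay on the opposite strand, and the use of strand in counting was not stated. They covered 4.80% of the exon bases of HAS2 (HAS2-AS1), 6.90% of HAS3 (CHTF8), 0.840% of CD44 (CD44-AS1) and 2.87% of HMMR (HMMR-AS1). HAS2-AS1 did not exceed an FPKM of 0.0863 in any library. CHTF8 was at 30.9 to 33.4 in the NC group and 29.6 to 39.9 in the TNF-α group, well above HAS3. If counting ignored strand, reads in the shared bases could have been given to HAS3, to CHTF8 or to neither, depending on settings that were not stated. The HAS3 values and the synthase shares could then be too high or too low. Whether this happened was not tested.

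Of the 9 genes, 6 reached an FPKM of 1 in 3 or more libraries and so passed the filter, and 0 of these 6 passed the adjusted threshold by limma, against 1.01% of the 12136 genes tested (87 higher and 36 lower). The unadjusted p was under 0.05 for 4 of the 6 (HAS2, HAS3, HMMR and HYAL3), against 24.2% of all tested genes. The groups did not overlap for 5 of the 6, with HAS2, CD44 and HYAL3 higher and HAS3 and HMMR lower, against 30.1% of all tested genes. For CD44 this was nearly a tie, with a lowest TNF-α value of 136.087 and a highest NC value of 136.068. The median log2 fold change of the 6 was 0.35, and that of all tested genes was 0.04. Because HAS2 passed the filter through its TNF-α values alone, these counts describe the genes and support no statement about the set.

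HAS2 entered the fits of this paragraph through its TNF-α values, so that its calls in them set it apart from no other gene, and without the filter its adjusted p was 0.261. With TNF-α replicate 1 alone against the NC group, where 6.03% of all tested genes passed the threshold, the log2 fold change of HAS2 was 1.14 (adjusted p = 0.0117 by limma). In this fit the lone library is assumed to vary as the NC libraries do. HAS3 was at -0.46 (adjusted p = 0.0732), CD44 at 0.06, HMMR at -0.10, HYAL2 at 0.00 and HYAL3 at 0.17. With replicates 2 and 3 alone against the NC group, 79.4% of all tested genes passed, as did 5 of the 6 genes, all but CD44, and HYAL2 reached 1.13 and HMMR -0.72. After the correction for GC content and gene length, HAS2 was at 0.97 with an adjusted p of 0.0287, where 2.04% of all tested genes passed, and under quantile normalization at 1.11 with an adjusted p of 0.0177, where 1.52% passed. Over all 20 alternatives the adjusted p of HAS2 ran from 0.00125 to 0.400.

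The corrected log2 ratios to the NC mean were 1.10, 0.84 and 0.97 for HAS2 in TNF-α replicates 1 to 3 and -0.48, -0.99 and -0.70 for HAS3, whose fold change of -0.72 had an adjusted p of 0.0763. Both synthases thus kept their direction in each TNF-α library, before and after the correction. HYAL3 did not, since its ratios of 0.17, 0.95 and 0.87 as deposited became 0.20, -0.11 and 0.02, and its fold change became 0.04 (adjusted p = 0.824). The HYAL2 ratios of 0.00, 1.21 and 1.06 became 0.00, 0.47 and 0.44, and those of HMMR, -0.10, -0.82 and -0.62, became -0.15, -0.62 and -0.50. Whether RNA quality, library preparation or a difference between the cultures set replicates 2 and 3 apart was not tested.

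**Figure D3:**
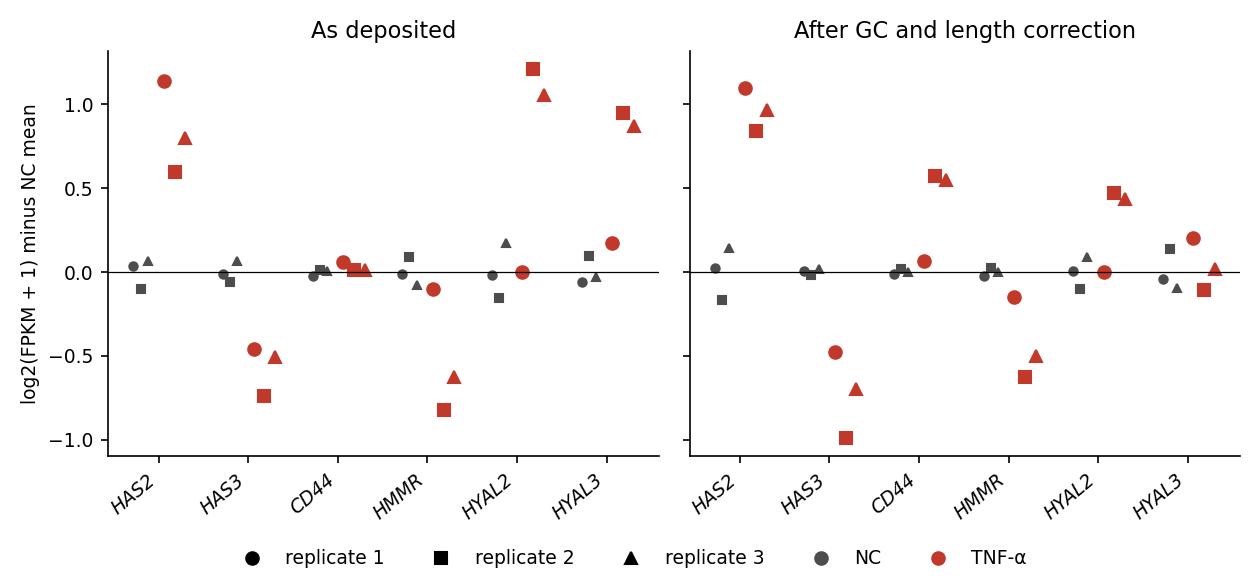
Log2(FPKM + 1) minus the NC mean for the 6 tested genes in each library, as deposited (left) and after the correction for GC content and gene length (right), with NC libraries in grey, TNF-α libraries in red and 1 marker shape per replicate. HAS2 lies above 0 and HAS3 below 0 in all 3 TNF-α libraries in both panels, whereas HYAL3 in replicates 2 and 3 falls from 0.95 and 0.87 to -0.11 and 0.02.

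The genes whose log2 levels followed HAS2 most closely over the 6 libraries were TNFAIP3 (Pearson's r = 0.998), TRIB1 (0.995) and NFKB1 (0.994), and 7 tested genes in all had an r above 0.99. TNFAIP3 and NFKB1 belong to the NF-kB pathway. For HAS3 they were SV2A (0.994), GLUL (0.993) and RASSF2 (0.9899), with 2 genes above 0.99, and for CD44 they were ZC3H18 (0.974), AKNA (0.963) and SMAD3 (0.962), with 0 above 0.99. HMMR, HYAL2 and HYAL3 had many close companions, with 228, 739 and 149 genes above 0.99, led by UBA3, SLC9A3R1 and MT-ND6. After these came SOCS6 and SEPT2 for HMMR, LMF2 and MLST8 for HYAL2, and RPF2 and SYS1 for HYAL3. These are descriptions over 6 libraries that share the 2 groups and the difference between replicate 1 and replicates 2 and 3.

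In the wider hyaluronan system, a precursor enzyme, a receptor and a matrix protein rose. Of the 8 genes that supply UDP-glucuronic acid and UDP-N-acetylglucosamine, 8 were tested and 1 rose past the threshold, where 1.01% of all tested genes passed. Their median log2 fold change was 0.24, against 0.04 for all tested genes. The lists were chosen with earlier results of these data known, so that such counts support no statement about a list. GFPT2, which catalyses the entry step of the hexosamine pathway, was at 5.09, 5.10 and 4.95 in NC replicates 1 to 3 and at 15.5, 13.4 and 13.8 in TNF-α replicates 1 to 3. Its log2 fold change was 1.33 ± 0.12 (SE), with adjusted p = 0.00965 by limma, and it was 1.16 after the GC and length correction (adjusted p = 0.0198). The call was lost without any 1 of the NC libraries or without TNF-α replicate 3, with the adjusted p between 0.0908 and 0.123 by limma. When single libraries were left out, the fold change stayed at 1.27 or more. The GFPT2 call was also lost with TPM, at 0.96 (adjusted p = 0.178 by limma), and with limma-voom on the recovered reads, at 1.23 (0.0737). With the replicate number as a block and the correction, its adjusted p was 0.0892. UAP1, which makes UDP-N-acetylglucosamine and was picked after its values were seen, was at 94.9 to 100 in the NC group and 127 to 153 in the TNF-α group, without overlap, but did not pass (adjusted p = 0.195).

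Of 6 other hyaluronan receptors, 3 (LYVE1, STAB1 and TLR2) were at 0 in all libraries. Of the list, 2 were tested and 1 rose past the threshold, where 1.01% of all tested genes passed. LAYN, the membrane receptor layilin, was at 35.9, 33.5 and 37.1 across the NC libraries and at 76.1, 112 and 104 across the TNF-α libraries. The log2 fold change of LAYN was 1.41 ± 0.19 (SE), with adjusted p = 0.0327 by limma, and it was 1.16 after the correction (adjusted p = 0.00356). Leaving out any NC library or TNF-α replicate 2 or 3 raised its adjusted p to between 0.116 and 0.276, with a fold change of 1.31 or more. The other tested receptor, TLR4, had a log2 fold change of -0.48 (adjusted p = 0.204 by limma), with a log2 ratio of 0.06 in TNF-α replicate 1.

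Of 15 genes of hyaluronan-binding matrix proteins, 6 were at 0 in all libraries. In this list 3 were tested and 1 rose past the threshold, where 1.01% of all tested genes passed. PTX3, the pentraxin that binds TNFAIP6 in the hyaluronan matrix, was at 6.92, 6.44 and 6.26 across the NC libraries and at 33.5, 47.5 and 44.0 across the TNF-α libraries. The PTX3 log2 fold change of 2.49 ± 0.17 (SE) had an adjusted p of 0.00316 by limma, and 2.20 remained after the correction (adjusted p = 0.000242). Without NC replicate 2 or NC replicate 3 the adjusted p was 0.0503 or 0.0515. The other tested genes of the list, chosen after their values were seen, were the link protein HAPLN3, at 1.25 with an adjusted p of 0.0925, and the proteoglycan versican. VCAN was at 33.8, 35.1 and 38.9 across the NC libraries and at 32.2, 6.0 and 7.53 across the TNF-α libraries, so that its log2 fold change of -1.55 (adjusted p = 0.195) came from the libraries that stood apart.

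No gene passed among the other enzymes of hyaluronan breakdown, the partners of CD44 or the partners of HMMR, where 1.01% of all tested genes did. For breakdown, 4 of 7 genes were tested, with 1 at an unadjusted p under 0.05 by limma, against 24.2% of all tested genes, and a median log2 fold change of 0.31. The 3 that differed most were the surface hyaluronidase CEMIP2, at -1.16 (adjusted p = 0.195), and the lysosomal enzymes GUSB and HEXA, at 0.47 (0.208) and 0.46 (0.223). For the linkers, sheddases and ligands of CD44, 9 of 12 genes were tested, with 2 under that unadjusted p and a median of -0.04. The cytoskeletal linker RDX was at -1.0 (adjusted p = 0.195), the sheddase ADAM17 at -0.91 (0.198) and the protease MMP14, which can shed CD44, at 0.80 (0.109). For the spindle and mitosis genes set beside HMMR, 12 of 12 were tested, with 3 under that unadjusted p and a median of -0.10. TOP2A, CENPF and MKI67 were at -1.18, -0.89 and -0.64 (adjusted p = 0.195 by limma for each). In TNF-α replicate 1 the log2 ratios to the NC mean were -0.37 for CEMIP2, -0.05 for GUSB and -0.13 for HEXA. There RDX was at -0.22, ADAM17 at 0.18 and MMP14 at 0.57, and TOP2A, CENPF and MKI67 at -0.23, -0.14 and -0.02. Each of these genes departed further from the NC mean in replicates 2 and 3. With replicates 2 and 3 alone, 4, 7 and 9 genes of these lists passed, where 79.4% of all tested genes did, and with replicate 1 alone 1, 1 and 2 passed, where 6.03% of all tested genes did.

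**Figure D4:**
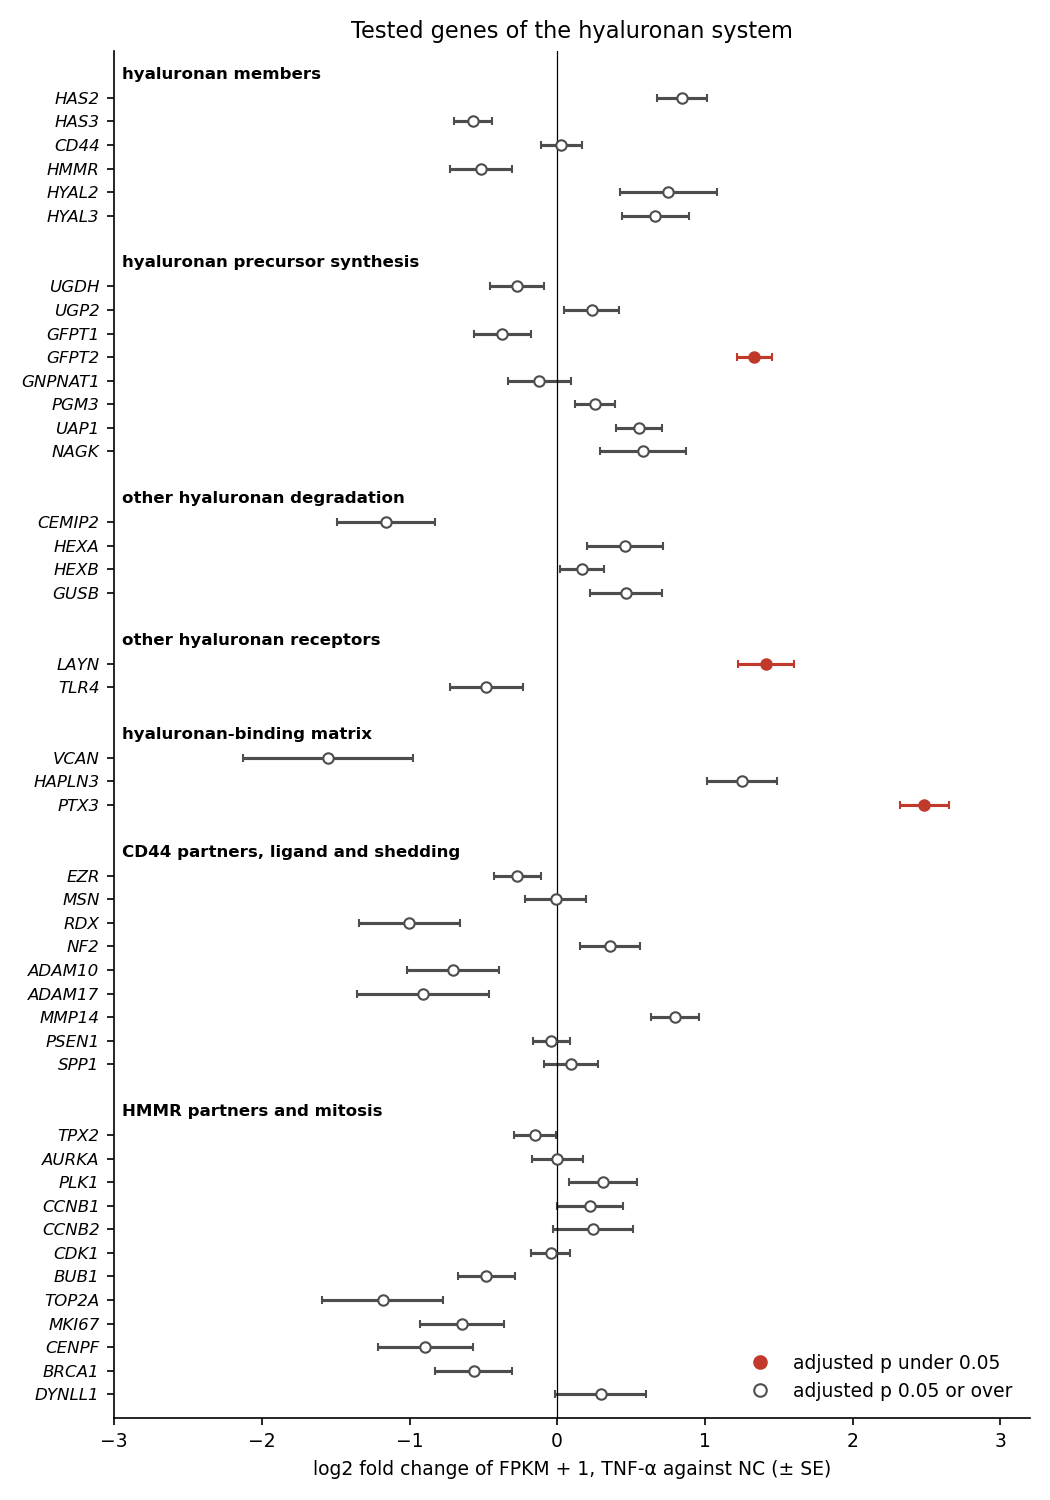
Log2 fold change of FPKM + 1 (TNF-α against NC) ± SE for the tested genes of the hyaluronan system, by list, with filled red points for an adjusted p under 0.05 by limma and open points for the others. GFPT2, LAYN and PTX3 are the filled points, at 1.33, 1.41 and 2.49, and HAS2 at 0.84 and HAS3 at -0.57 are open.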

How the data were processed

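RNA-seq libraries of U251 cells (3 NC, 3 TNF-α) were assigned to groups from their sample titles. The authors deposited gene-level FPKM, fragments per kilobase of exon divided by a scaled library total, in 1 column per library without log transformation. Library construction, sequencing and primary analysis were done by a service company. The submitters' processing notes name HISAT2 2.0.5, StringTie 1.3.3b, featureCounts 1.5.0, GATK 3.7, DESeq2 and edgeR, with no role given, and the use of strand is not given in the sources used here. All 58735 genes matched GENCODE 29 in identifier, position and exon length. A further 6 columns of per-sample values matched no sample described here and were not used, nor was any column of the authors' own comparisons. Whole reads were recovered from the FPKM steps for 100% of values (tolerance 0.05 read). Limits of 3 reads and other read counts cover counting error, not PCR duplicates.

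FPKM was tested as log2(FPKM + 1), with a pseudocount of 1, over the 12136 genes that reached a minimum FPKM of 1 in 3 or more libraries, using limma 3.58.1 in R 4.3.3 (lmFit, eBayes with trend, two-sided, Benjamini-Hochberg over all genes tested, threshold 0.05). The fit was tested on counts simulated from the NC shares with known changes. These did not hold the shift seen in TNF-α replicates 2 and 3, so that the simulation does not cover it. Single values were compared by exact permutation tests of 3 against 3 libraries with scipy 1.17.1. The correction for GC content and gene length fitted each library's log2 ratios with natural splines of 5 degrees of freedom, with GC taken from the longest GENCODE transcript. Python 3.11.15, pandas 2.3.3, numpy 2.4.6 and matplotlib 3.10.9 were used.

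The members and the 13 gene lists were chosen with earlier results of these data known. Named were the 9 genes, every gene of the 6 hyaluronan lists past the threshold or, where none passed, the 3 tested genes with the largest absolute fold change, neighbours that overlap or adjoin a member, and the 3 genes most correlated with each tested member. The 20 alternatives covered pseudocounts of 0.1 and 0.5, 2 other filters, TPM, quantile normalization, median centring, eBayes without trend or robust, the replicate number as a block, limma-voom on recovered reads, the GC and length correction, and leaving out libraries.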

Additional observations from a re-analysis of the deposited data

How the results depend on the processing

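The number of genes past the threshold, 123, was 58 without a filter, 58 with TPM, 185 with quantile normalization, 77 with limma-voom, 247 with the GC and length correction, 732 with TNF-α replicate 1 alone and 10 to 9630 when single libraries were left out, the highest without TNF-α replicate 1. The deviations of same-numbered libraries from their group means had correlations of -0.01, -0.18 and 0.12. These cannot exclude pairing, because the difference between TNF-α replicate 1 and replicates 2 and 3 can mask a shared deviation. A replicate block left 24 genes, or 42 with the correction, and 0 of the 6 filtered genes, with an adjusted p of 0.213 for HAS2. The number of the 6 filtered genes past the threshold was 0 in 16 alternatives, 1 (HAS2) with quantile normalization, the correction or replicate 1 alone, and 0 to 5 without single libraries. HAS2 then stood at 1.11, 0.97 and 1.14, and at 0.70 to 0.97 without single libraries. Those ranges were -0.62 to -0.48 for HAS3, -0.72 to -0.36 for HMMR, 0.53 to 1.13 for HYAL2, 0.52 to 0.91 for HYAL3 and 0.02 to 0.18 for HYAL1, fitted without the filter. Without TNF-α replicate 1, where 79.4% of all tested genes passed, HAS2, HAS3, HMMR, HYAL2 and HYAL3 passed. HYAL1 passed there in the fit without the filter, whose share of genes passing is not given here. Its call rests on 17 and 19 reads in TNF-α replicates 2 and 3, with the TNF-α library of 0 reads left out. Over all alternatives HAS3 ran from -1.19 (limma-voom; TPM -1.18) to -0.42, HMMR from -1.03 (TPM) to -0.10, HYAL2 up to 1.13, HYAL3 from 0.04 to 0.91 and HAS2 from 0.70 to 1.54. HAS2, HAS3, HMMR, HYAL3 and TNFAIP6 kept their direction in every alternative. CD44 reversed with TPM (-0.47), quantile normalization (-0.54), median centring (-0.018) and limma-voom (-0.24), and HYAL2 with replicate 1 alone (-0.0027). HAS1 reversed with the correction (-0.28, with or without the block), and HYAL1 with TPM (-0.0099), limma-voom (-0.74), the correction (-0.20, with or without the block) and replicate 1 alone (-0.12). HAS1 and HYAL1 reached at most an FPKM of 0.129 and 0.250, and the correction subtracts a fitted curve from these values near 0. Their fold changes before it were 0.08 for each, so the corrected signs are not a measured fall. The cause of the other reversals was not tested. GFPT2, LAYN and PTX3 stayed above 0 in all 20 alternatives and past the threshold in 12, 12 and 18. Under the replicate block GFPT2 (adjusted p = 0.110) and LAYN (0.171) did not pass and PTX3 (0.0408) did. Depth limits HAS1, HYAL1 and TNFAIP6, which had 0 to 34 reads per library, and 3 libraries per group limit every test.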
